A study of Homo sapiens with 8 samples.

Results

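The genes described here are 34 that make cholesterol or control its supply, out of 19414 coding genes listed in every library. They were chosen by gene symbol, from knowledge of the pathway and with no measured value in the rule, and all 34 were found. Earlier results of these data were known when they were chosen. They comprised 8 enzymes of the first steps and the isoprenoid branch, 11 enzymes from squalene to cholesterol, 5 genes that control the transcription factors SREBP, 4 genes of sterol transport and uptake control, and 6 enzymes of fatty acid synthesis. Of these, 33 had enough reads to be tested. TM7SF2, a reductase of the sterol rings, held between 0 and 9 reads per library and did not pass the filter on low reads.

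Cells build cholesterol from acetyl-CoA through mevalonate and the isoprenoid farnesyl diphosphate, which is joined to squalene and then closed into rings. The supply is set by SREBP proteins, made as precursors in the membrane of the endoplasmic reticulum, where SCAP holds them and INSIG proteins keep SCAP in place when sterols are plentiful. When sterols run low, SCAP carries SREBP to the Golgi, cleavage frees its active part, and genes of sterol and fatty acid synthesis, INSIG1 among them, are transcribed. SREBP-2, from SREBF2, acts mainly on sterol genes, and the SREBP-1 forms, from SREBF1, mainly on fatty acid genes.

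The assay was TT-seq, in which RNA takes up the base analogue 4-thiouridine while cells transcribe, so that newly made RNA can be read. It was run in U2OS, a human osteosarcoma cell line. The 4 groups of 2 libraries were labelled WT, Zab, MYC O/E (overexpression of the transcription factor MYC, written MYC below) and Zab + MYC O/E (written MYC_Zab below). The series' design text writes Zab as Zαβ, the usual name of the stretch with which ADAR, an enzyme that edits RNA, binds left-handed nucleic acids. No label says what drives either construct, whether the cells were a clone, or whether the 2 libraries of a group had their own cultures. The p-values thus reflect the spread between libraries, and that spread may be technical. Libraries held between 1839960 and 4072059 recovered reads in coding exons. Levels are given as CPM, a library's reads scaled to a common total with TMM (a trimmed mean of ratios between libraries), and changes as log2(CPM + 1) differences ± SE from limma, called where the p adjusted by Benjamini-Hochberg over 11985 genes was under 0.05. As these are bulk samples, fewer cells of a type and less RNA per cell cannot be told apart.

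The genes that check the labels went against some of them. MYC stood at 776 and 752 CPM in the libraries labelled WT and at 6578 and 6606 CPM in those labelled MYC, but at 752 and 772 CPM in those labelled MYC_Zab. In the libraries labelled Zab, MYC was at 917 and 1015 CPM, above every library labelled WT or MYC_Zab. ADAR stood at 33914 and 33898 CPM in the libraries labelled WT and at 32282 and 32341 CPM in those labelled MYC_Zab, against 519 and 567 CPM in Zab and 445 and 464 CPM in MYC. Group names below are therefore names of labels, each direction rests on them, and every comparison of Zab or MYC with WT is also a comparison of ADAR-low with ADAR-high libraries. Of 10 osteosarcoma or mesenchymal markers, 5 were above 5 CPM in all libraries, while SP7 was at 0 throughout and COL1A2 reached at most 1.18 CPM. Blood markers summed to at most 1.56 CPM and liver markers to at most 1.03 CPM. The libraries labelled Zab also held fewer coding-exon reads, 6.44 and 6.66 per 100 tags, against 13.1 to 13.8 in the other 6.

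Promoter sequence was read for the members as the 250 bases before the transcription start, from RefSeq windows on GRCh38.p14, which covered 30 of the 34. Shown are INSIG1, SREBF2, SCD and DHCR7, which have some of the widest differences between groups of their roles. Capitals mark, on either strand, the E-box CACGTG to which MYC binds, the letters TCACNCCAC of a sterol response element to which SREBP binds, and CCAAT, the box of factor NF-Y.
INSIG1, chr7:155297628-155297877, plus strand: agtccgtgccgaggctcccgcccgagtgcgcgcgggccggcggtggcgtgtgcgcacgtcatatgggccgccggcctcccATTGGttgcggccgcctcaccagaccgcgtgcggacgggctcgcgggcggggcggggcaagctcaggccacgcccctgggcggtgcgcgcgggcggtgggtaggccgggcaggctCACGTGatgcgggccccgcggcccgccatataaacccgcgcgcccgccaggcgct
SREBF2, chr22:41832855-41833104, plus strand: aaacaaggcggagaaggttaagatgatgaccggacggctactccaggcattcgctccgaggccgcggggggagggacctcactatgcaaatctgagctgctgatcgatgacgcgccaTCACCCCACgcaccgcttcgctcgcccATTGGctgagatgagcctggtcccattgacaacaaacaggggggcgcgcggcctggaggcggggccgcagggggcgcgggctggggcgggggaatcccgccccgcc
SCD, chr10:100346983-100347232, plus strand: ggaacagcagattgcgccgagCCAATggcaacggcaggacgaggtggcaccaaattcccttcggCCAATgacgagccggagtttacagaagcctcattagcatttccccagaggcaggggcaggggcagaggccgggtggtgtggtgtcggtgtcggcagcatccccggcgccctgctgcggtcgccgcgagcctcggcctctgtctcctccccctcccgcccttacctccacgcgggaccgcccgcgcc
DHCR7, chr11:71448394-71448643, minus strand: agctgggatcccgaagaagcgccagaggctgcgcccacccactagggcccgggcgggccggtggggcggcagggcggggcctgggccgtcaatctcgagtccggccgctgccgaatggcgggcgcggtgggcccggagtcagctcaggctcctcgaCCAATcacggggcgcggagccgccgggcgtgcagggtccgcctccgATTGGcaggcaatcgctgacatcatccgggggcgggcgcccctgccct
Counted from the first base of the match, the INSIG1 window holds CACGTG 55 bases before the start and CCAAT at 170 bases. The SREBF2 window holds TCACNCCAC at 133 bases and CCAAT at 106 bases. The SCD window holds CCAAT at 229 and 186 bases, and the DHCR7 window holds it at 94 and 48 bases. A second DHCR7 window of the table, chr11:71449044-71449293, holds none of these letters, nor GGGCGG.

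Across the members, CACGTG was in the windows of 4 of 30 genes (13.3%), against 11.5% of 9707 tested genes with a window. TCACNCCAC was in 1 of 30 (3.33%), against 1.26%, and CCAAT in 20 of 30 (66.7%), against 41.9%. The letters GGGCGG, the box of the Sp factors, were in 29 of 30 (96.7%), against 76.2%. Matches of GGGCGG overlapped in some windows, those of INSIG1 and ACACA among them. Over all 35116 windows of the table, each of the same length, the shares were 6.34%, 0.883%, 32.0% and 42.6%. A match is a description of letters and says nothing of binding in these cells.

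**Figure D1:**
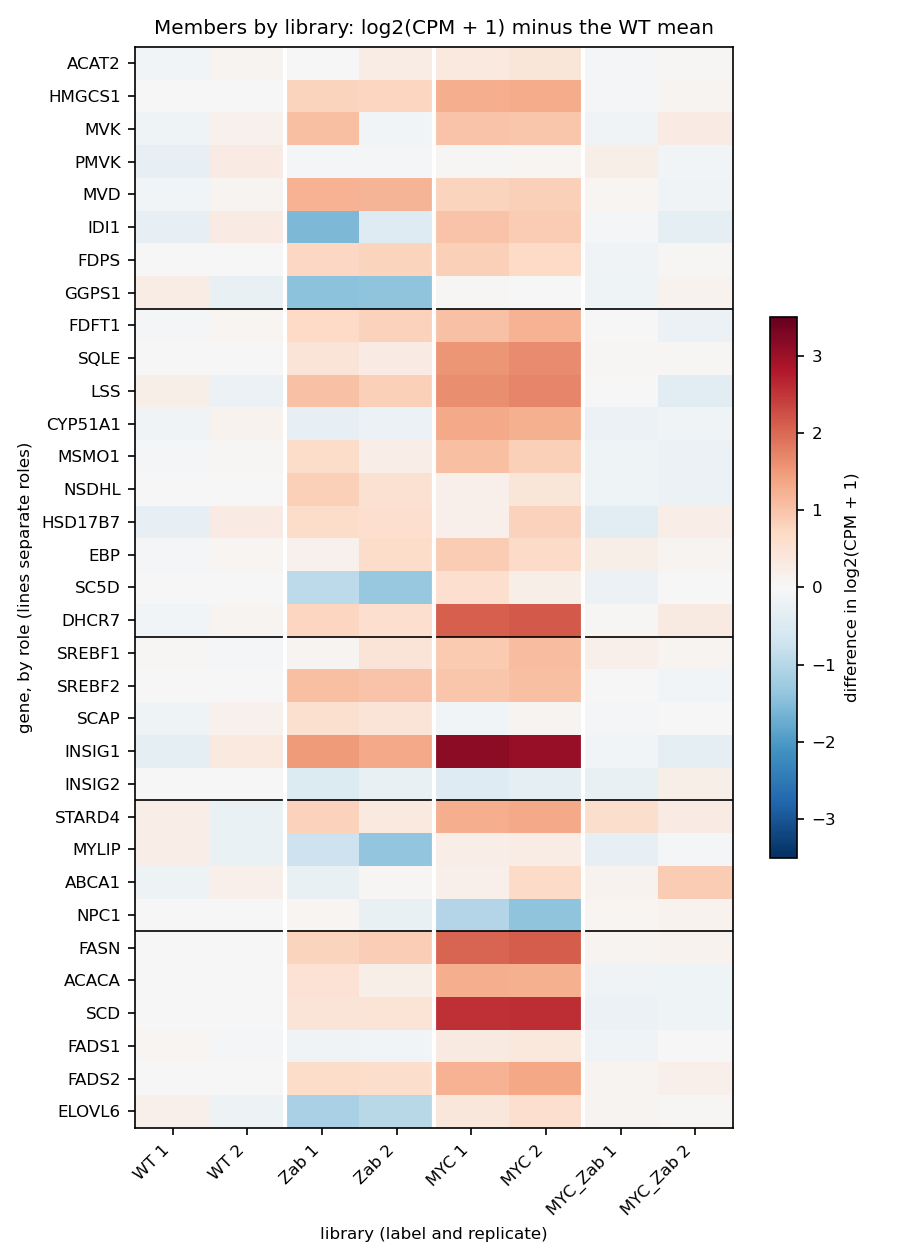
Each cell is the log2(CPM + 1) of a gene in a library minus the mean of the 2 libraries labelled WT, for the 33 tested members in rows by role and the 8 libraries in columns. The libraries labelled MYC are red for most genes and blue for NPC1, those labelled Zab are mixed, and those labelled MYC_Zab are close to those labelled WT.

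In the libraries labelled MYC, newly made RNA of most members was higher than in those labelled WT. Of the 33 tested, 22 rose and 1 fell, where 22.2% of all genes tested rose and 21.9% fell. The median change over the members was 0.94 on the log2 scale, against -0.01 over all genes tested. Summed over the members, the level was 2810 and 2875 CPM in the libraries labelled WT and 8171 and 8472 CPM in those labelled MYC, and FASN and SCD made up 33.9% and 34.0% of the sum in WT and 55.3% and 55.5% in MYC. Without these genes the sum was 1856 and 1897 CPM in WT and 3650 and 3770 CPM in MYC. The same comparison on the deposited scale, which means the authors' values with no scaling beyond their own and a median of all genes of 0.47, gave 28 members up and 1 down, where 48.7% of all genes rose and 9.59% fell. The osteosarcoma or mesenchymal markers moved with the groups too, with 1 called higher and 4 lower of 6 tested in MYC over WT (median -0.52; 2 and 2 on the deposited scale) and sums of 3342 to 3449 CPM in WT, 3858 to 4032 CPM in Zab, 2417 to 2455 CPM in MYC and 3135 to 3211 CPM in MYC_Zab. Their part in the member changes was not tested.

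**Figure D2:**
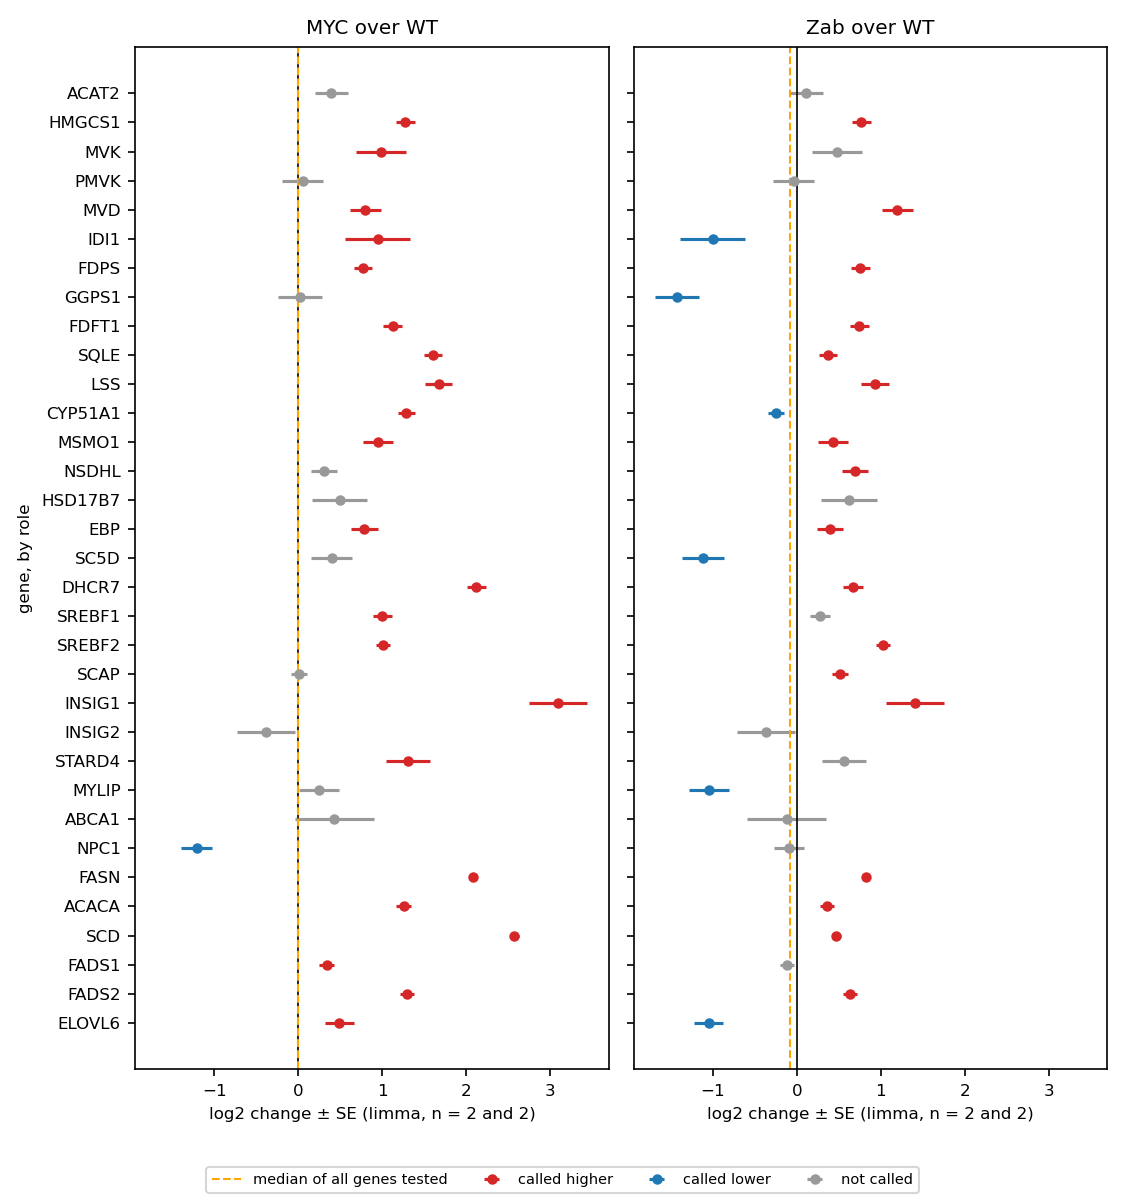
Points are log2(CPM + 1) changes of the 33 tested members ± SE (limma, 2 libraries a group), MYC over WT on the left and Zab over WT on the right, coloured by call; the dashed line is the median of all genes tested. In MYC over WT 22 members are called higher and NPC1 lower; in Zab over WT 17 are called higher and 6 lower.

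The genes of SREBP control did not move alike. INSIG1, which retains SCAP in the endoplasmic reticulum and is itself an SREBP target, stood at 2.92 and 5.36 CPM in WT, 13.0 and 11.5 CPM in Zab, 42.6 and 40.6 CPM in MYC, and 3.63 and 2.98 CPM in MYC_Zab. Its libraries labelled MYC were above all others, those labelled Zab lay between, and WT and MYC_Zab overlapped. The ratio of mean levels of INSIG1 was 10.04 in MYC over WT, a log2 change of 3.09 ± 0.34 (adjusted p = 2.45e-08), the largest among the members. In Zab over WT the change of INSIG1 was 1.41 ± 0.34 (adjusted p = 0.00129), from 24 reads in both libraries labelled WT and 44 in those labelled Zab, and a different transcript could be counted in each library, 5 in all. INSIG2, its paralogue, which is not known as an SREBP target, stood at 10.4 and 10.01 CPM in WT, 7.07 and 8.38 CPM in Zab, 7.23 and 7.91 CPM in MYC, and 8.30 and 11.9 CPM in MYC_Zab, and its change in MYC over WT was -0.39 ± 0.34 (adjusted p = 0.385), and 0.06 on the deposited scale.

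SREBF2 stood at 138 and 137 CPM in the libraries labelled WT, 286 and 273 CPM in Zab, 268 and 285 CPM in MYC, and 137 and 129 CPM in MYC_Zab. The levels in Zab and MYC overlapped and were clear of the other 4 libraries. SREBF2 rose by 1.01 ± 0.08 in MYC over WT (adjusted p = 7.24e-11) and by 1.02 ± 0.08 in Zab over WT (adjusted p = 4.64e-11), and MYC over Zab was -0.02 ± 0.08 (adjusted p = 0.863), which became 1.08 on the deposited scale. SREBF1 stood at 90.4 and 84.0 CPM in WT, 93.7 and 119 CPM in Zab, 167 and 184 CPM in MYC, and 98.4 and 93.6 CPM in MYC_Zab. Only the libraries labelled MYC were far from the rest for SREBF1, with a change of 1.001 ± 0.12 over WT (adjusted p = 5.65e-08). In Zab over WT SREBF1 gave 0.28 ± 0.12, just outside the threshold (adjusted p = 0.0502), and -0.32 on the deposited scale.

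SCAP, the escort of SREBP, stood at 144 and 176 CPM in WT, 235 and 220 CPM in Zab, 149 and 171 CPM in MYC, and 151 and 161 CPM in MYC_Zab. Its libraries labelled MYC overlapped those labelled WT, with a change of 0.01 ± 0.10 (adjusted p = 0.972). On the deposited scale 4 of the 5 genes of SREBP control, SCAP among them, were called higher in MYC over WT. Of all genes, 48.7% rose on that scale. In Zab over WT SCAP rose by 0.51 ± 0.10 (adjusted p = 9.17e-05), a direction that turned to -0.09 on the deposited scale. Of the 5 genes of SREBP control, 3 rose in MYC over WT and 3 rose in Zab over WT, with SREBF2 and INSIG1 in both counts. Of all genes tested, 22.2% rose in MYC over WT and 22.5% in Zab over WT.

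**Figure D3:**
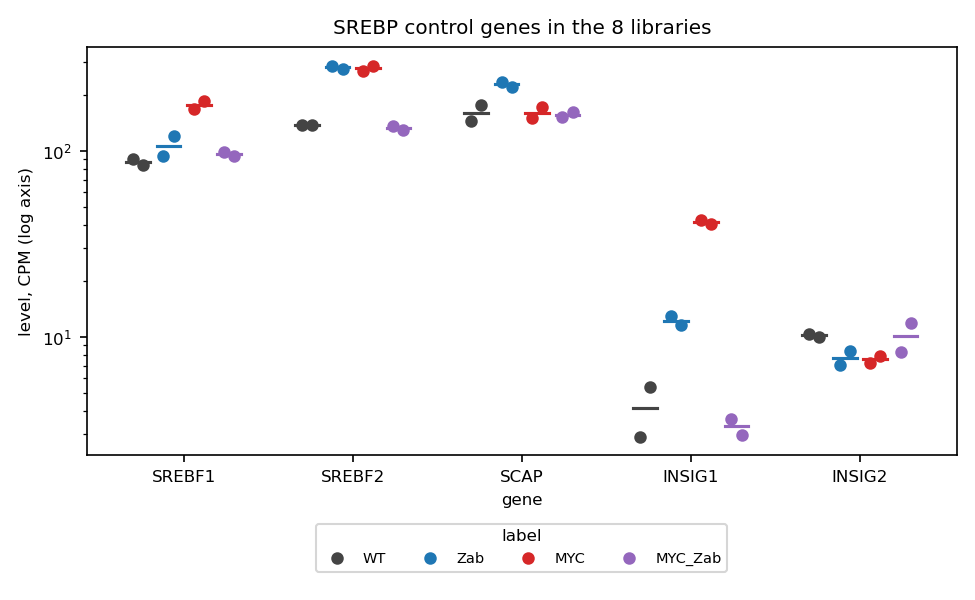
Levels in CPM (log axis) of the 5 genes of SREBP control, a point for each of the 8 libraries and a bar for each group mean. INSIG1 runs from 2.92 CPM in a library labelled WT to 42.6 CPM in a library labelled MYC, SREBF2 is at like levels in Zab and MYC, and SCAP in MYC overlaps WT.

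Among the enzymes of the first steps and the isoprenoid branch, 5 of 8 rose in MYC over WT and none fell, with a median change of 0.78. Over all genes tested, 22.2% rose and 21.9% fell. On the deposited scale 6 of the 8 rose and none fell, where 48.7% of all genes rose and 9.59% fell. HMGCS1, which joins acetyl-CoA to acetoacetyl-CoA, stood at 64.5 and 66.1 CPM in WT, 113 and 111 CPM in Zab, 158 and 161 CPM in MYC, and 63.6 and 69.5 CPM in MYC_Zab. The groups labelled Zab and MYC were each clear of WT for HMGCS1, with changes of 0.77 ± 0.11 (adjusted p = 2.80e-06; 0.17 and not called on the deposited scale) and 1.27 ± 0.11 (adjusted p = 4.09e-10). The next enzymes of the mevalonate route differed among themselves. The kinase MVK went from 14.7 ± 2.46 CPM in WT to 29.8 ± 0.193 CPM in MYC (SD, n = 2), and the decarboxylase MVD from 25.4 ± 2.49 to 44.8 ± 1.31 CPM; both rose, with changes of 0.98 and 0.80. FDPS, the synthase of farnesyl diphosphate, rose from 80.8 ± 1.53 to 138 ± 8.86 CPM. PMVK, the kinase between MVK and MVD, stood at 23.0 ± 6.89 CPM in WT and 23.4 ± 0.539 CPM in MYC and was not called, nor was ACAT2, the thiolase at the entry of the route, at 30.7 ± 3.09 and 40.5 ± 1.80 CPM.

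IDI1 and GGPS1 were the members of this role that fell in Zab over WT. IDI1, the isomerase that makes the reactive isoprene unit, stood at 7.13 and 11.1 CPM in WT, 2.36 and 6.28 CPM in Zab, 18.8 and 17.3 CPM in MYC, and 8.56 and 6.95 CPM in MYC_Zab. Its call in MYC over WT (0.94 ± 0.38, adjusted p = 0.0474) was lost without any 1 of the libraries labelled WT, MYC or MYC_Zab (0.66 to 1.23), and its fall in Zab over WT (-1.003 ± 0.38, adjusted p = 0.0318) was lost without WT 2 (-0.72), Zab 1 (-0.44), MYC 1 or MYC 2. GGPS1, which adds a unit to make geranylgeranyl diphosphate for protein anchors, stood at 29.2 and 19.7 CPM in WT, 8.25 and 8.38 CPM in Zab, 24.8 and 24.0 CPM in MYC, and 21.5 and 26.3 CPM in MYC_Zab. The libraries labelled Zab were below the other 6 for GGPS1, a fall of 1.42 on the log2 scale against WT (SE 0.26, adjusted p = 5.59e-05), while MYC overlapped WT at 0.02 ± 0.26 (adjusted p = 0.953). RefSeq lists 3 pseudogenes of IDI1, 10 of FDPS, 3 of CYP51A1 and 2 of HSD17B7, so for these genes reads could have been split between copies.

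The enzymes from squalene on rose in MYC over WT in 7 of 10 tested, none fell, and the median change was 1.04. The shares of all genes tested were 22.2% higher and 21.9% lower. On the deposited scale all 10 rose, where 48.7% of all genes rose and 9.59% fell. DHCR7, the reductase of the last steps, stood at 62.5 and 71.2 CPM in WT, 114 and 100.03 CPM in Zab, 287 and 298 CPM in MYC, and 68.8 and 83.4 CPM in MYC_Zab. The ratio of means was 4.38 in MYC over WT, with a change of 2.12 ± 0.12 (adjusted p = 1.68e-14), and the libraries labelled Zab lay between MYC and the rest. LSS, the cyclase that closes the sterol rings, stood at 43.7 and 33.3 CPM in WT, 79.0 and 68.6 CPM in Zab, 119 and 128 CPM in MYC, and 37.6 and 29.3 CPM in MYC_Zab. For LSS too the libraries labelled Zab lay between MYC and the rest. LSS rose by 1.67 ± 0.16 in MYC over WT (adjusted p = 1.85e-09) and by 0.93 ± 0.16 in Zab over WT (adjusted p = 2.56e-05). The latter change was 0.33 and not called on the deposited scale. SQLE, the oxidase that turns squalene into its epoxide, stood at 76.5 and 78.3 CPM in WT, 107 and 94.3 CPM in Zab, 228 and 245 CPM in MYC, and 79.4 and 78.9 CPM in MYC_Zab. For SQLE the change was 1.60 ± 0.11 in MYC over WT (adjusted p = 1.37e-12), and in Zab over WT 0.37 ± 0.11 (adjusted p = 0.00573), lost without Zab 1 (0.28, adjusted p = 0.0516) and -0.23 on the deposited scale.

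The other enzymes of this branch covered a wide range. FDFT1, which makes squalene, rose from 80.8 ± 6.09 CPM in WT to 177 ± 16.2 CPM in MYC, and CYP51A1, the demethylase of lanosterol, from 135 ± 17.3 to 329 ± 9.14 CPM (SD, n = 2). MSMO1, the oxidase that starts the removal of the next methyl groups, rose from 35.2 ± 1.25 to 69.1 ± 7.46 CPM, and EBP, an isomerase, from 48.6 ± 3.13 to 84.6 ± 8.83 CPM. NSDHL and HSD17B7, a dehydrogenase and a reductase that complete this removal, and SC5D gave changes of 0.30, 0.49 and 0.39 and were not called. On the deposited scale each of them was called higher in MYC over WT. CYP51A1 and SC5D had another order of groups than DHCR7 and LSS: in the libraries labelled Zab they were at 113 ± 4.27 and 11.2 ± 2.50 CPM, against 135 ± 17.3 and 25.2 ± 0.306 CPM in WT. SC5D, a desaturase near the end of the route, fell by 1.12 in Zab over WT (adjusted p = 0.00044), and CYP51A1 by 0.25 (adjusted p = 0.0356), the latter lost without WT 2 (-0.12), Zab 1 (-0.21), MYC 1 or MYC 2.

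Of the 4 genes of sterol transport and uptake control, 1 rose and 1 fell in MYC over WT. These counts are near the shares of all genes tested, of which 22.2% rose and 21.9% fell. On the deposited scale 2 rose and 1 fell, where 48.7% of all genes rose and 9.59% fell. NPC1, which moves cholesterol out of lysosomes, stood at 52.2 and 52.2 CPM in WT, 54.8 and 43.5 CPM in Zab, 25.3 and 19.0 CPM in MYC, and 55.0 and 56.8 CPM in MYC_Zab. It was the member that fell in MYC over WT, by 1.21 on the log2 scale (SE 0.18, adjusted p = 3.23e-06) and by 0.73 on the deposited scale, and its libraries labelled MYC lay below the other 6. STARD4, a carrier of sterols between membranes and an SREBP target, stood at 15.6 and 11.1 CPM in WT, 23.6 and 16.8 CPM in Zab, 33.3 and 34.6 CPM in MYC, and 20.8 and 16.1 CPM in MYC_Zab. STARD4 rose by 1.31 ± 0.26 in MYC over WT (adjusted p = 0.000157). MYLIP, a ligase induced by the oxysterol receptor LXR that marks lipoprotein receptors for degradation, stood at 37.3 and 26.8 CPM in WT, 18.9 and 11.5 CPM in Zab, 37.4 and 37.8 CPM in MYC, and 26.0 and 30.5 CPM in MYC_Zab. MYLIP was lowest in Zab, with a fall of 1.05 on the log2 scale against WT (SE 0.24, adjusted p = 0.000643), and gave 0.24 ± 0.24 in MYC over WT (adjusted p = 0.431). ABCA1, the exporter of cholesterol and another LXR target, held between 4 and 26 reads per library, or 2.36 to 6.45 CPM, and was called in none of the 7 comparisons.

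All 6 enzymes of fatty acid synthesis rose in MYC over WT, where 22.2% of all genes tested rose, with a median change of 1.27 for the enzymes. SCD, the desaturase that makes oleic acid, stood at 303 and 304 CPM in WT, 416 and 425 CPM in Zab, 1784 and 1820 CPM in MYC, and 265 and 273 CPM in MYC_Zab. The ratio of means was 5.95 in MYC over WT, a change of 2.57 ± 0.05 (adjusted p = 3.31e-24). In Zab over WT SCD rose by 0.47 ± 0.05 (adjusted p = 3.63e-08), which was -0.14 on the deposited scale, and RefSeq also lists 1 pseudogene of SCD. FASN, the fatty acid synthase, stood at 651 and 674 CPM in WT, 1141 and 1213 CPM in Zab, 2737 and 2882 CPM in MYC, and 706 and 717 CPM in MYC_Zab. As for SCD, the libraries labelled MYC were the highest for FASN and those labelled Zab came next. FASN rose by 2.08 ± 0.04 in MYC over WT (adjusted p = 1.32e-24) and by 0.83 ± 0.04 in Zab over WT (adjusted p = 2.29e-15). ELOVL6, which extends palmitate, stood at 57.4 and 44.0 CPM in WT, 22.4 and 25.1 CPM in Zab, 65.8 and 76.2 CPM in MYC, and 53.7 and 52.1 CPM in MYC_Zab. ELOVL6 was lowest in Zab, with a fall of 1.05 on the log2 scale (SE 0.17, adjusted p = 1.08e-05), and its rise in MYC over WT, 0.49 ± 0.17 (adjusted p = 0.0218), was lost without WT 2 (0.30) or MYC 2 (0.38).

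ACACA, the carboxylase that supplies FASN, rose from 172 ± 0.414 CPM in WT to 412 ± 7.36 CPM in MYC (SD, n = 2). The desaturases of polyunsaturated fatty acids, neighbours on chromosome 11, differed: FADS2 rose from 140.0 ± 2.78 to 345 ± 23.4 CPM, while FADS1 went from 176 ± 13.8 to 222 ± 7.54 CPM, a change of 0.34 ± 0.09 that was lost without WT 2 (0.26, adjusted p = 0.0609). The MVK call in MYC over WT (adjusted p = 0.00844) was lost without WT 1 (0.82), MYC 1 (0.97) or MYC 2 (0.99).

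In the libraries labelled Zab, the members moved in both directions. Of 33, 17 rose and 6 fell in Zab over WT, where 22.5% of all genes tested rose and 27.1% fell, with a member median of 0.43 against -0.08 over all genes. Those that fell were IDI1, GGPS1, CYP51A1, SC5D, MYLIP and ELOVL6. Counted by role, 3 rose and 2 fell among the enzymes of the first steps, 7 rose and 2 fell among the sterol enzymes tested, none rose and 1 fell in transport and uptake control, and 4 rose and 1 fell in fatty acid synthesis. On the deposited scale these counts were 1 and 4, 0 and 2, 0 and 2, and 1 and 4, where 4.8% of all genes rose and 57.4% fell. The MVD level went from 25.4 ± 2.49 CPM in WT to 59.4 ± 1.04 CPM in Zab (SD, n = 2), the second largest rise among the members after INSIG1. MVK disagreed between its libraries labelled Zab, at 31.2 and 13.6 CPM, and its change of 0.48 was 1.05 without Zab 2.

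The direction of the members in Zab over WT depended on the scaling between libraries. On the deposited scale, on which the median of all genes was -0.63, 4 members rose (INSIG1, MVD, SREBF2 and FASN), 14 fell, and the member median was -0.16. HMGCS1, FDPS, FDFT1, LSS, NSDHL, DHCR7 and FADS2 lost their call there, with changes of 0.03 to 0.33. Scaled by library totals, 13 rose and 7 fell, where 15.8% of all genes rose and 34.6% fell, with a member median of 0.26 against -0.24 over all genes. The epithelial markers, mostly KRT8 and KRT18, moved with the groups too, and EPCAM, CDH1, KRT19 and ESRP1 were at or below 4.45 CPM in every library. Their sum was 1365 to 1400 CPM in WT, 2341 to 2479 CPM in Zab, 866 to 906 CPM in MYC and 1266 to 1285 CPM in MYC_Zab, and 2 of 6 were above 5 CPM in all libraries. The part of these markers, and of the lower share of coding-exon reads in Zab, in the member changes was not tested.

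The calls of several small rises in Zab over WT were lost when single libraries were left out, which also leaves fewer libraries to estimate the spread. The MSMO1 change of 0.43 was lost without any 1 library except Zab 2, with values of 0.23 to 0.47. EBP gave 0.40, lost without WT 1 (0.33), WT 2 (0.46), Zab 2 (0.16), MYC 1 or MYC 2, and ACACA gave 0.36, lost without Zab 1 (0.20, adjusted p = 0.0519). On the deposited scale MSMO1, EBP and ACACA turned to -0.16, -0.20 and -0.25.

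The libraries labelled MYC_Zab were close to those labelled WT for every member. None of 33 was called in either direction in MYC_Zab over WT by limma, edgeR's quasi-likelihood test or DESeq2, where limma called 0.134% of all genes higher and 0.442% lower, and 2 members had an unadjusted p under 0.05 by each of the 3 tools. Changes ran from -0.22 for INSIG1 to 0.49 for ABCA1, with a median of -0.03 against 0.00 over all genes. The member counts of a library labelled MYC_Zab and a library labelled WT differed by a chi-square per member of 1.81 to 2.37, against 1.96 between the libraries labelled WT and 1.43 between those labelled MYC_Zab. Against Zab, libraries labelled WT gave 17.4 to 21.8. On the deposited scale 4 members rose in MYC_Zab over WT (DHCR7, FADS2, FASN and SREBF1, by 0.38 to 0.45), where 14.6% of all genes rose, 0.025% fell and their median was 0.27. ADAR was high and MYC low in both of these groups, as given above.

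MYC_Zab over MYC shares the libraries labelled MYC with MYC over WT and is not separate evidence. In it 22 members fell and 1 rose, where 22.5% of all genes fell and 22% rose, with medians of -0.86 and 0.03. INSIG1 fell by 3.31 ± 0.34, SCD by 2.74 ± 0.05, FASN by 1.98 ± 0.04 and DHCR7 by 1.94 ± 0.12 on the log2 scale, and NPC1 rose by 1.31 ± 0.18. NSDHL was called here (-0.49 ± 0.15, adjusted p = 0.0118; lost without MYC 2, -0.37, or MYC_Zab 2, -0.46) and ELOVL6 was not (-0.41 ± 0.17, adjusted p = 0.0505). Other calls lost when a library was left out were those of IDI1 (lost without any 1 library of these groups, -1.26 to -0.995), MVK (lost without MYC 1, -0.89, MYC 2, -0.91, or MYC_Zab 1, -0.69), EBP (lost without MYC 1, -0.53) and STARD4 (lost without MYC 1, MYC 2 or MYC_Zab 2, -0.68).

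MYC_Zab over Zab shares the libraries labelled Zab with Zab over WT and is likewise not separate evidence. Here 16 members fell and 4 rose, where 22.6% of all genes fell and 26.8% rose, with medians of -0.40 and 0.06. The 4 that rose were GGPS1 (1.41 ± 0.26), ELOVL6 (1.12 ± 0.17), SC5D (1.01 ± 0.24) and MYLIP (0.89 ± 0.24), and the MYLIP call was lost without Zab 2 (0.55) or MYC_Zab 2 (0.77). INSIG1 fell by 1.62 ± 0.34 and MVD by 1.22 ± 0.18 on the log2 scale. The falls of SQLE (-0.34, lost without Zab 1, -0.25, MYC_Zab 1, -0.34, or MYC_Zab 2, -0.33) and MSMO1 (-0.61, lost without Zab 1, -0.41) were not called in every subset of libraries. The split turned on the deposited scale, to 22 up and 2 down (INSIG1 and SREBF2) with a median of 0.43, where 73.5% of all genes rose, 1.98% fell and their median was 0.89; by library totals it was 7 up and 14 down, against 35.8% and 14.5% of all genes.

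MYC over Zab set apart groups that both had low ADAR. Here 21 members rose and 3 fell, where 30.6% of all genes rose and 25.9% fell, with medians of 0.55 and 0.08. On the deposited scale 32 rose and none fell, where 75.1% of all genes rose, 5% fell and their median was 1.113. SCD rose by 2.10 ± 0.05 (adjusted p = 1.95e-22), IDI1 by 1.95 ± 0.38 (adjusted p = 1e-04), INSIG1 by 1.69 ± 0.34 and DHCR7 by 1.45 ± 0.12. CYP51A1 rose by 1.53 ± 0.10, ELOVL6 by 1.54 ± 0.17, SC5D by 1.51 ± 0.24 and GGPS1 by 1.45 ± 0.26, and these 4 and IDI1 were called lower in Zab over WT, a comparison that shares the libraries labelled Zab. The members called lower were NPC1 (-1.12 ± 0.18), SCAP (-0.51 ± 0.10) and NSDHL (-0.39 ± 0.15), of which SCAP and NSDHL were higher on the deposited scale, by 0.59 and 0.70, and NPC1 gave -0.05. The NSDHL call was lost without Zab 1 (-0.23) or MYC 1 (-0.27). Rises whose call was lost when a library was left out were those of FDFT1 (0.38, lost without MYC 2, 0.29), MSMO1 (0.52, lost without Zab 2, 0.31, or MYC 1, 0.41), EBP (0.39, lost without Zab 1, 0.15, MYC 1, 0.28, or MYC 2, 0.50) and STARD4 (0.74, lost without Zab 2, 0.51, MYC 1, 0.77, or MYC 2, 0.72). FDPS was at 137 ± 3.05 CPM in Zab and 138 ± 8.86 CPM in MYC (SD, n = 2), and FDPS, like SREBF2, overlapped between these groups.

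The interaction asked whether the change with Zab differed between MYC and WT, as MYC_Zab over MYC minus Zab over WT. Of the 33 members, 23 were called lower and 3 higher, where 24% of all genes were lower and 29.3% higher, with medians of -1.19 and 0.14. INSIG1 gave -4.71 ± 0.49 (adjusted p = 4.64e-09), SCD -3.21 ± 0.08 (adjusted p = 4.88e-23) and FASN -2.81 ± 0.06 (adjusted p = 3.14e-24). Those higher were GGPS1 (1.39 ± 0.37), NPC1 (1.40 ± 0.25) and ELOVL6 (0.64 ± 0.24). Since MYC and ADAR levels went against the labels, this term sets the same 4 groups of libraries against each other under labels that the measured levels do not bear out. It rests on the libraries of the comparisons above and is not separate evidence. On the deposited scale it gave 20 lower and 5 higher, where 15.3% of all genes were lower and 42.1% higher, and by library totals 5 were again called higher, where 38.3% of all genes were.

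Compared per kb of exon, the members spanned a wide range of levels, and the order at the top changed with the group. In WT the highest were FASN at 79.1, SCD at 57.9, FDPS at 53.6 and FADS2 at 45.6 CPM per kb, and in MYC they were SCD at 344, FASN at 335, DHCR7 at 113 and FADS2 at 113 CPM per kb. INSIG1 was at 1.35 CPM per kb and rank 32 of 34 in WT, and at 13.5 CPM per kb and rank 22 in MYC. NPC1 went from rank 21 at 11.1 CPM per kb in WT to rank 31 at 4.71 CPM per kb in MYC. ABCA1 and TM7SF2 were the lowest in WT, at 0.300 and 0.206 CPM per kb. Within SREBP control the order in WT was SCAP (38.0), SREBF2 (26.4), SREBF1 (17.6), INSIG2 (2.87) and INSIG1 (1.35 CPM per kb), while in MYC SREBF2 (53.2) stood above SCAP (38.0).

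**Figure D4:**
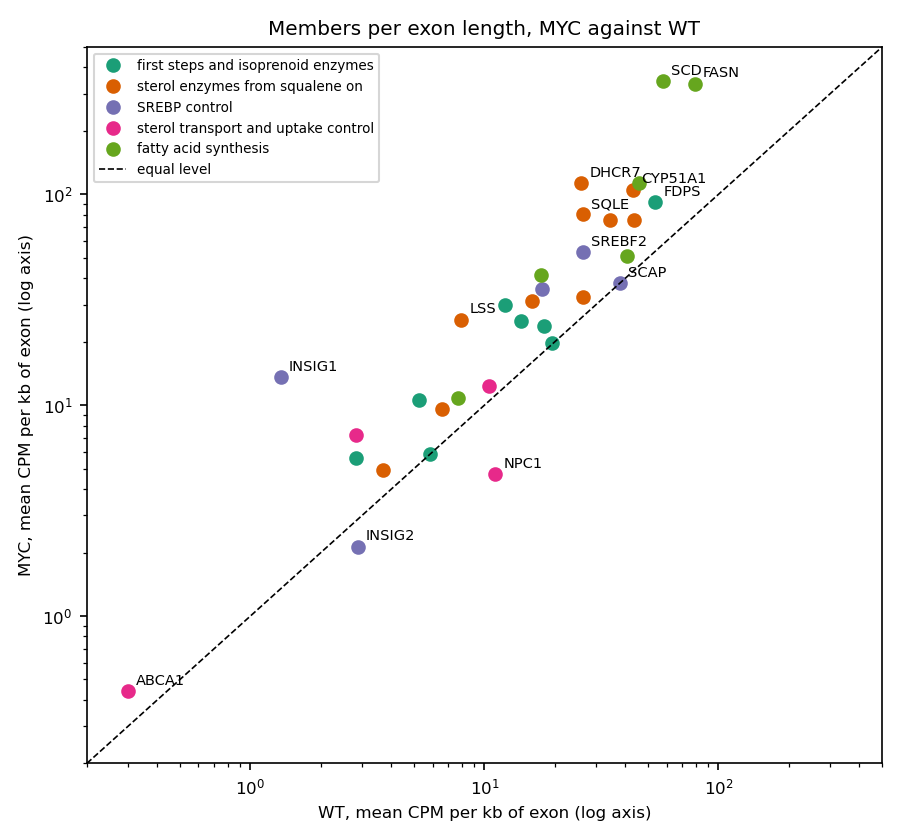
Mean CPM per kb of exon (log axes) of the members in WT, horizontal, and MYC, vertical, coloured by role, with a dashed line at equal levels. SCD and FASN are at the top right, INSIG1 is the point farthest above the line, and NPC1 and INSIG2 lie below it, the latter by a difference that was not called.

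Gene span, the distance from start to end of a gene, went with the change in Zab over WT over all genes, with Pearson's r of -0.29 between log span and change across 11985 genes, which share libraries and are not independent. Across the 33 members r was -0.08. In the bin of 20 to 50 kb, the 12 members had a median change of 0.55 against -0.11 for the 3224 genes of that bin, and in the bin of 10 to 20 kb the 14 members had 0.45 against 0.09. The 3 members from 50 to 100 kb, SREBF2, SCAP and NPC1, had a median of 0.51 against -0.28. SREBF2 spans 74.2 kb (hg19 chr22:42229109-42303309) and rose, ELOVL6 spans 153 kb (chr4:110967003-111119771) and fell, and GGPS1 spans 15.5 kb (chr1:235492323-235507844) and fell.

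**Figure D5:**
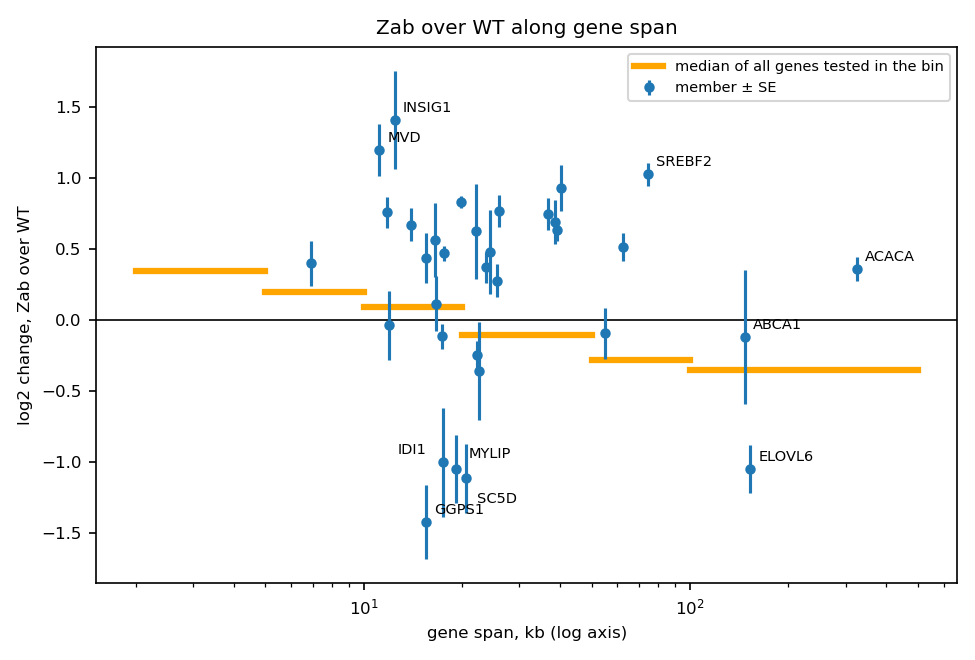
Change in Zab over WT ± SE (limma, 2 libraries a group) of each of the 33 members against gene span in kb (log axis), with the median of all genes tested in each span bin as orange bars. The bars fall from 0.34 in the shortest bin to -0.36 in the longest, and the members lie on both sides of them.

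Other genes of these pathways were counted beside the members, and their counts are read against the shares of all genes. By TMM, 22.2% of all genes rose and 21.9% fell in MYC over WT, with 22.5% and 27.1% in Zab over WT, and on the deposited scale 48.7% and 9.59% in MYC over WT and 4.8% and 57.4% in Zab over WT. Among 15 other genes of fatty acid and lipid synthesis, 9 rose and 3 fell in MYC over WT (median 0.69; 11 and 0 on the deposited scale), while in Zab over WT the counts were 4 and 5 (0 and 11 on the deposited scale). ACSL1, which activates fatty acids, went from 43.1 and 45.1 CPM in WT to 132 and 124 CPM in MYC, and GPAM, the acyltransferase that opens triglyceride synthesis, from 9.07 and 11.4 CPM to 20.9 and 17.8 CPM. The GPAM call (0.86 ± 0.34, adjusted p = 0.0397 by limma) was lost without either library labelled WT or MYC, where its change ran from 0.71 to 1.01. ALDOC, an aldolase, held 0.648 to 9.43 CPM over all libraries and was called in neither comparison. Of 11 genes of SREBP cleavage and sterol-regulated degradation, 2 rose and 3 fell in MYC over WT (median 0.00; 6 and 0 on the deposited scale), and 3 rose and none fell in Zab over WT (1 and 6 on the deposited scale). SYVN1, a ligase of this degradation route, fell by 0.40 ± 0.15 on the log2 scale in MYC over WT and rose by 1.32 ± 0.15 in Zab over WT. The fall of SYVN1 was lost without WT 1, MYC 1 or MYC 2, with a smallest change of -0.29, and was 0.09 on the deposited scale. VCP, which pulls proteins out of the membrane, followed SYVN1, with -0.29 ± 0.05 and 0.53 ± 0.05, but on the deposited scale these turned to 0.21 and -0.07.

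Other genes of sterol transport, storage and oxysterols gave 2 up and 4 down of 13 tested in MYC over WT, with a median of 0.16, and 7 up and 2 down on the deposited scale. NPC2, the soluble partner of NPC1 in lysosomes, stood at 116 and 147 CPM in WT, 114 and 105 CPM in Zab, 30.7 and 34.6 CPM in MYC, and 126 and 109 CPM in MYC_Zab. As for NPC1, the libraries labelled MYC were the lowest, and NPC2 fell by 1.97 ± 0.13 on the log2 scale. GRAMD1B, which carries cholesterol from the plasma membrane, fell by 1.38 ± 0.19 there, and SCARB1, a receptor for lipoproteins, rose by 1.54 ± 0.11; these directions held on the deposited scale. In Zab over WT 5 of the 13 rose and 1 fell, against 1 and 5 on the deposited scale. Of 12 genes of isoprenoid use, 2 rose and 2 fell in MYC over WT (6 and 0 on the deposited scale), and 1 and 5 did so in Zab over WT (0 and 11), with falls of PDSS1 (-1.13 ± 0.28), which makes the coenzyme Q side chain, and RABGGTB (-1.08 ± 0.20), which attaches the geranylgeranyl group that GGPS1 supplies. NUS1, of dolichol synthesis, rose by 1.23 ± 0.17 in MYC over WT and by 0.46 ± 0.17 in Zab over WT, the latter lost without WT 1, WT 2 or Zab 2 (lowest 0.37) and -0.13 on the deposited scale. None of the genes of these lists was called in MYC_Zab over WT by limma, where 0.134% of all genes rose and 0.442% fell. On the deposited scale 6 were called higher, ACLY, GRAMD1A, LPIN1, MID1IP1, SCARB1 and STARD3. Of all genes tested, 14.6% rose and 0.025% fell in MYC_Zab over WT on that scale.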

How the data were processed

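The deposited values cover 19414 coding genes in 8 TT-seq libraries of U2OS cells. Per the file headers, the authors used HOMER to count tags in exons of RefSeq coding genes (hg19) on the opposite strand and kept 1 transcript per gene in each library. Tools in the submitters' processing notes are bedtools 2.29.2, SAMtools 1.11, STAR and Trim Galore 0.6.6, and builds are hg19 and dm6. The deposited values are a signal, not counts: in each library 99.97% to 100% of them were whole multiples, within 0.02 reads, of a step between 0.204 and 0.259. Dividing by the step recovered whole reads, and the sources used here do not give what that factor rests on. Among low recovered counts, 77.2% to 82.7% in a library were even. Independent counts may thus be fewer than the reads stated here, also for the fits and chi-squares on recovered reads. Of the members, 19 had the same transcript in all libraries.

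CPM was computed from the deposited signal with TMM scaling in edgeR 4.0.16, after edgeR's filterByExpr on the recovered reads, with a minimum of 10 reads, chose 11985 genes to test. The test was limma 3.58.1 with a trend on log2(CPM + 1) in R 4.3.3, in 1 fit of 8 libraries and 4 groups with no block and 4 residual degrees of freedom. There were 7 comparisons, with Benjamini-Hochberg adjustment over all genes tested and calls under 0.05. Ratios are of mean CPM, and log2 changes understate the changes of low genes. An exact permutation test of 2 against 2 libraries cannot go below p = 0.333 (two-sided), so none was used. The fit was tested on simulated data.

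The members and the lists were chosen with earlier results of these data known. Groups come from the genotype labels. Full values were given for the 5 genes of SREBP control and, in each role, the 3 members with the widest range of group means, and other pathway genes were named by the same rule, at most 3 a list, of which 1 is not reported here. Alternatives were the deposited scale, library totals, DESeq2 size factors, pseudocounts of 0.5 and 5, no filter or a mean of 5 CPM, edgeR and DESeq2 1.42.0 on recovered reads, only the groups compared, a replicate block, pairs as 1 sample, genes with 1 transcript in all libraries, a trend along gene span removed, each replicate left out, and, added after seeing the data, TMM over tested genes. Promoter windows were matched by symbol to RefSeq on GRCh38.p14 and show only letters. No batch is named in the labels or headers.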

Additional observations from a re-analysis of the deposited data

Results flagged for a closer look

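For 26 of the 33 members tested, the change with Zab differed between the libraries labelled MYC and those labelled WT by the interaction term of limma (adjusted p under 0.05), given as a difference of log2(CPM + 1) changes. Over all genes tested, 29.3% were called higher and 24% lower by this term. These values set MYC_Zab over MYC against Zab over WT, and the levels of MYC and ADAR go against those labels. They rest on the libraries of those comparisons and are not separate evidence. Among the first enzymes the difference was -2.02 for HMGCS1, -1.38 for MVK, -2.01 for MVD, -1.56 for FDPS and 1.39 for GGPS1. Among the sterol enzymes it was -1.98 for FDFT1, -1.94 for SQLE, -2.79 for LSS, -1.19 for CYP51A1, -1.56 for MSMO1, -1.18 for NSDHL, -1.18 for HSD17B7, -1.03 for EBP and -2.61 for DHCR7. In SREBP control it was -1.14 for SREBF1, -2.07 for SREBF2, -0.55 for SCAP and -4.71 for INSIG1. In transport it was -1.42 for STARD4 and 1.40 for NPC1. In fatty acid synthesis it was -2.81 for FASN, -1.74 for ACACA, -3.21 for SCD, -0.29 for FADS1, -1.80 for FADS2 and 0.64 for ELOVL6.

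Leaving out single libraries ended 4 of these calls. MVK was lost without Zab 1 (-0.81). HSD17B7 was lost without WT 1 (-0.89), Zab 1 (-1.15), MYC 2 (-0.86) or MYC_Zab 1 (-0.87). FADS1 was lost without WT 2 (-0.21), Zab 2 (-0.28), MYC 1 (-0.33), MYC 2 (-0.26) or MYC_Zab 1 (-0.24). ELOVL6 was lost without WT 1 (0.45), Zab 1 (0.56), MYC 1 (0.53), MYC_Zab 1 (0.62) or MYC_Zab 2 (0.66), and gave 0.06 with the trend along gene span removed.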

How the results depend on the processing

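The deposited scale changed most. Members called up and down became 4 and 14 in Zab over WT, 4 and 0 in MYC_Zab over WT, 22 and 2 in MYC_Zab over Zab, 32 and 0 in MYC over Zab, and 5 and 20 in the interaction. On that scale the direction turned in Zab over WT for ACAT2 (-0.47), SQLE (-0.23), MSMO1 (-0.16), EBP (-0.20), SREBF1 (-0.32), SCAP (-0.093), ACACA (-0.25) and SCD (-0.14). In MYC_Zab over Zab it turned for ACAT2 (0.72), HMGCS1 (0.13), FDPS (0.084), FDFT1 (0.022), SQLE (0.54), MSMO1 (0.25), EBP (0.62), DHCR7 (0.38), SREBF1 (0.73), SCAP (0.34), STARD4 (0.72), FASN (0.16), ACACA (0.39), SCD (0.24) and FADS2 (0.38). In MYC over Zab it turned for MVD (0.69), NSDHL (0.70), HSD17B7 (0.90), SREBF2 (1.08), SCAP (0.59) and INSIG2 (0.94), and in the interaction for FADS1 (0.086). Library totals gave 7 members up in MYC_Zab over Zab and 5 up in the interaction. With the same transcript in all libraries 19 members could be fitted, and the calls were 13 up in MYC over WT, 11 up in Zab over WT, 13 down in MYC_Zab over MYC, 9 down in MYC_Zab over Zab, 13 up in MYC over Zab and 14 down in the interaction. The other counts of members kept within 1.5 times of their value under the alternatives run; the interaction needs all 4 groups and could not be fitted with only the groups compared.

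Leaving out each library in turn leaves 1 library in a group, and the number of all genes called moved as well. Counts of members called without a library are therefore not given. Calls of named members that were lost this way are given above. Replicate numbers did not pair the samples (correlations of deviations between -0.0262 and 0.00992). The replicate block gave 18 members up in Zab over WT in place of 17, by SREBF1 (0.28, adjusted p = 0.0479 by limma), and changed no other call among the members. Genes under about 10 reads a library, as INSIG1 in WT, TM7SF2 and ABCA1, are limited by depth.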

Other observations

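As a share of recovered coding-exon reads, which amounts to scaling by library totals, the members made up 0.815% and 0.841% in the libraries labelled MYC. The share was 0.379% and 0.371% with the label Zab, 0.291% and 0.297% with WT, and 0.297% and 0.304% with MYC_Zab. As given above, the direction of the members in Zab over WT depended on the scaling between libraries.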
